A study of Mus musculus with 9 samples.

Results

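The 9 genes described here belong to the pathway that loads peptides onto major histocompatibility complex (MHC) class I molecules. They are B2m, H2-K1, H2-D1, Tap1, Tap2, Tapbp, Psmb8, Psmb9 and Psmb10. They were read through every probe set, that is every group of probes made for a transcript, whose platform annotation gives exactly 1 gene symbol and that symbol is among these. All 9 genes, of 15964 named genes, were found in this way, through 20 of 36701 probe sets, of which design A of the arrays carried 16, design B carried 1 and design C carried 3. The arrays were Affymetrix MG-U74v2 oligonucleotide arrays in their 3 designs, which carry different probe sets, with 3 replicates of each. All 9 arrays held amplified RNA of GFP-positive retinal cells from mouse pups at postnatal day 8. The pups were homozygous for Tie2-GFP, a transgene that marks endothelium through the Tie2 promoter, and had received APB5, an antibody that neutralises the pericyte receptor PDGFRb, by intraperitoneal injection from day 0 to day 7. No untreated group was analysed here, so no effect of APB5 can be read from these values. Retinas were pooled, and the labels do not say whether replicates came from separate pools, so every spread is one between arrays and may be technical. The Tie2 promoter is also active in some blood cells.

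MHC class I molecules display peptides from inside a cell to CD8 T cells. A polymorphic heavy chain, in mouse encoded by H2-K1 and H2-D1 among others, pairs with the invariant light chain beta-2 microglobulin, the product of B2m. The inducible proteasome subunits Psmb8, Psmb9 and Psmb10 replace constitutive catalytic subunits and alter the peptides that are cut, the transporter made of Tap1 and Tap2 carries peptides into the endoplasmic reticulum, and tapasin, encoded by Tapbp, bridges the transporter and the empty heavy chain. Endothelial cells display class I molecules, and interferons raise the expression of most genes of the pathway.

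On design A the class I genes lay above the middle of the arrays, with Tap1 as the exception. The median position of their 16 probe sets was percentile 76.4, counted from 0 to 100 among all probe sets of an array and averaged over the replicates, against 51.4 for all 10833 probe sets with 1 symbol. Of the 9 genes, 8 had at least 1 probe set above the floor, set at the 40th percentile, on all 3 arrays, and Tap1 was the one without. The same held for 66.3% of all 8251 named genes of design A. A gene with more probe sets passes such a count more easily. The members had 16 probe sets for 9 genes, against 10833 for the 8251 named genes. At or above the 75th percentile on all 3 arrays lay 7 of 16 member probe sets, beside 23.7% of all named probe sets. Restricted to probe sets with plain names, that count was 3 of the 9 such sets, and no share of all plain probe sets is given. At or above the 90th percentile lay 3 of 16, beside 9% of all, and these were the probe set of B2m and the strongest ones of H2-K1 and H2-D1. A higher threshold was the 90th percentile over the probe sets of 31 genes specific to unrelated tissues such as liver, pancreas and testis (tissue-foreign genes), which lay at 60.03. It was exceeded on all 3 arrays by 7 of the 9 class I genes, all but Tap1 and Tap2, and by 45.2% of all named genes. Percentiles rank the signals of probe sets, which also depend on the probes, so they do not give an order of transcript amounts.

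**Figure D1:**
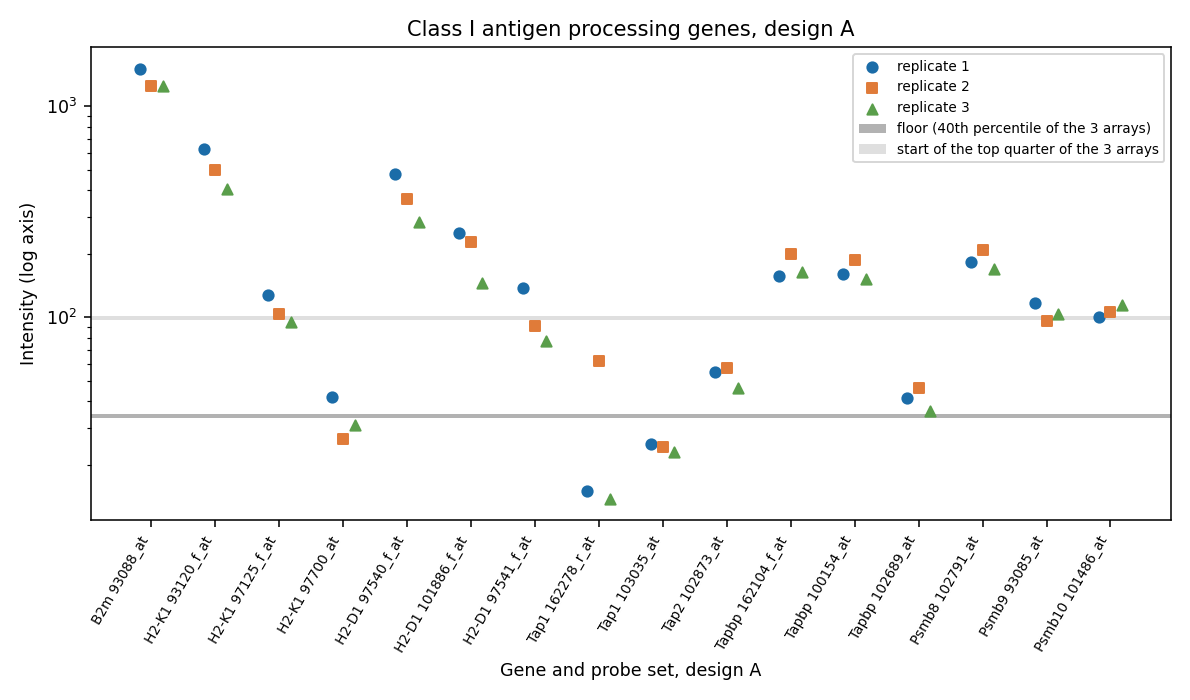
Intensity on a log axis of the 16 design A probe sets of the 9 class I genes, grouped by gene, with 1 point per replicate array. The dark band spans the floors of the 3 arrays and the light band the intensities at their 75th percentile; B2m lies highest, at 1245 to 1502, and the plain Tap1 probe set lies under the floor on every array.

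B2m gave the strongest signal of the 9 genes. Its probe set 93088_at read 1502, 1252 and 1245 in replicates 1, 2 and 3, at percentile 98.8 ± 0.19 (SD, n = 3 arrays, as for every percentile below). These 3 readings lay above all readings of the other member probe sets.

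The classical heavy chain genes came next by their strongest probe sets, but the probe sets of each gene differed widely. For H2-K1, probe set 93120_f_at read 628, 501 and 407 (percentile 95.4 ± 1.04). Its second probe set, 97125_f_at, read 127, 104 and 95.1 (76.5 ± 2.60), and the third, 97700_at, read 42.1, 26.6 and 31.0 (38.1 ± 9.66), above the floor on 1 array. The letter f in a name marks a probe set whose probes match several members of a gene family, and 97700_at, which has no such letter, was the weakest of these. For H2-D1, 97540_f_at read 475, 362 and 284 (93.1 ± 1.68), 101886_f_at read 251, 227 and 145 (87.0 ± 3.35) and 97541_f_at read 138, 91.2 and 77.4 (74.4 ± 6.06). All H2-D1 probe sets carry the letter f and all lay above the floor on every array. Signals of H2-K1 and H2-D1 may therefore include other heavy chain transcripts, and the genes cannot be told apart by these probe sets. Another 3 probe sets were annotated to H2-K1 or H2-D1 together with further heavy chain genes and were not counted as members. They lay at percentiles 78.1 ± 4.48 (102161_f_at), 74.8 ± 2.14 (97174_r_at) and 14.7 ± 3.36 (95773_at).

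Upstream regions are shown for B2m, H2-K1 and H2-D1 because their strongest probe sets gave the highest signals of the 9 genes on design A. All member probe sets of these genes read highest in the same replicate. Averaged over its probe sets, however, H2-K1 lay at percentile 70.0, below Psmb8, Psmb10, Psmb9 and Tapbp. Tap1 is shown because it had the lowest average percentile of the 9 genes on design A. Each region is the stretch of 250 bases that ends just before the annotated start of transcription (RefSeq, GRCm38.p6), written 5′ to 3′ on the strand of the gene. Capitals mark matches, on either strand, to GAANNGAAA or GAAANNGAA, which are forms of the interferon response element and could overlap each other, to GGGGATTCC, part of a binding sequence of NF-kappaB, to TGACG, the core of the X2 box, and to CCAAT.
H2-K1 upstream region, chr17:34000348-34000597, minus strand: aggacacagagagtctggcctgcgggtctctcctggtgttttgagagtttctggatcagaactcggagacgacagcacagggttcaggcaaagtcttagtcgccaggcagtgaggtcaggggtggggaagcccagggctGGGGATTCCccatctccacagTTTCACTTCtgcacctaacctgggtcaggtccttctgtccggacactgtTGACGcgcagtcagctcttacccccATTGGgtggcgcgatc
H2-D1 upstream region, chr17:35262844-35263093, plus strand: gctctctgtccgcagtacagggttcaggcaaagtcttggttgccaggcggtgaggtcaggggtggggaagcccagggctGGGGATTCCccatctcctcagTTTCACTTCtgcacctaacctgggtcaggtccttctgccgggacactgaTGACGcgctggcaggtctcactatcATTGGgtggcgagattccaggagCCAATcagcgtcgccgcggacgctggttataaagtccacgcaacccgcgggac
B2m upstream region, chr2:122147437-122147686, plus strand: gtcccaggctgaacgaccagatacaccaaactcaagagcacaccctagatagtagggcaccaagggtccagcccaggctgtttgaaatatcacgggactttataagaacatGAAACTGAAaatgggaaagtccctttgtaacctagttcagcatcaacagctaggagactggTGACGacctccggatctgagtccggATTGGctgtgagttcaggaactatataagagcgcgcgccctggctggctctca
Tap1 upstream region, chr17:34187306-34187555, plus strand: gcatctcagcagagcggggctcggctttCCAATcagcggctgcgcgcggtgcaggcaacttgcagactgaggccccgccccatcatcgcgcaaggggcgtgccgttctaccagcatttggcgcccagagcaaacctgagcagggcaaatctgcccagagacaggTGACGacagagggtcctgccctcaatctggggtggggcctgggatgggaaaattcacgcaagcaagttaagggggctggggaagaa

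The H2-K1 and H2-D1 regions were alike, with 166 of 190 aligned bases identical (87.4%). Both held GGGGATTCC, GAANNGAAA, TGACG and CCAAT. B2m held GAAANNGAA, TGACG and CCAAT, and Tap1 held TGACG and CCAAT. Among 32851 mouse upstream regions of the same length, GGGGATTCC occurred in 0.213%, GAANNGAAA in 6.31%, GAAANNGAA in 7.13%, TGACG in 17.8% and CCAAT in 33.8%. Upstream regions were matched for 8 of the 9 genes, all but Tap2. H2-K1 has 2 annotated starts, of which the more distal one is shown, and both regions held the same kinds of match. Psmb9 held TGACG and CCAAT in the stretch it shares with Tap1, since these genes are neighbours read in opposite directions. Tapbp held CCAAT alone. The regions of Psmb8 and Psmb10 held none of the 5 sequences, and their design A probe sets lay at percentiles 86.3 and 76.4. Whether these sequences relate to the level of a signal or to its replicate pattern was not tested. A match describes letters in these windows and does not show that a factor binds there. A missing match does not show that a binding site is absent, since only these sequences were searched.

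Averaged over the probe sets of a gene, the peptide transporter genes had the lowest percentiles of the 9 genes on design A, although single probe sets of H2-K1 and Tapbp lay below that of Tap2. For Tap1, the plain probe set 103035_at read 25.3, 24.4 and 23.02 (percentile 26.5 ± 2.71) and 107886_at on design B read 22.1, 22.97 and 22.3 (24.3 ± 1.28), below the floor on every array. Another Tap1 probe set on design A, 162278_r_at, read 15.1, 62.4 and 13.8 (28.6 ± 29.2), so that replicate 2 alone lay above the floor. Without replicate 2 its mean percentile was 11.8. Its log2 SD of 1.22 exceeded that of 99.9% of the design A probe sets, and the letter r in its name marks probes chosen under relaxed rules. Tap2 read 55.1, 57.5 and 46.5 with 102873_at on design A (56.7 ± 4.16), above the floor on all arrays but below the tissue-foreign threshold of 60.03. On design C its probe set 165667_r_at read 146, 98.5 and 79.8 (85.1 ± 5.07).

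Tapbp was clearly above the floor with 2 of its probe sets and far below it with another. On design A, 162104_f_at read 158, 200 and 164 (percentile 85.3 ± 1.65) and 100154_at read 161, 187 and 152 (84.6 ± 1.26), so both gave nearly the same values array by array. The third, 102689_at, read 41.7, 46.4 and 36.1 (47.4 ± 5.23), just above the floors of 33.5, 34.2 and 34.9. On design C, 170521_r_at read 5.38, 8.36 and 8.29 (6.67 ± 2.77), among the lowest signals of that design. How the designs were scaled is not known, so intensities of designs A and C are not compared.

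All of the inducible proteasome subunits were above the floor on every array of design A, and Psmb8 also on every array of design C. The other arrays carry no member probe set of these genes. By the same rule 66.3% of all named genes of design A were above the floor. Psmb8, the chymotrypsin-like subunit LMP7, read 184, 209 and 169 with 102791_at on design A (percentile 86.3 ± 0.975) and 84.9, 62.8 and 59.5 with 167254_at on design C (75.6 ± 4.55). Psmb9, the subunit LMP2, read 116, 95.9 and 104 with 93085_at (76.0 ± 2.10). Psmb10, the subunit MECL-1, read 100, 106 and 114 with 101486_at (76.4 ± 1.91). The readings of Psmb9 and Psmb10 overlapped. Of the constitutive subunits that they replace, Psmb5, the counterpart of Psmb8, averaged percentile 85.7 ± 3.60 over 2 design A probe sets and lay at 98.96 ± 0.576 with 109821_f_at on design B, which carries no Psmb8 member probe set. On design A, Psmb7, the counterpart of Psmb10, lay at 81.6 ± 3.68, and Psmb6, the counterpart of Psmb9, at 74.4 ± 0.441. No ratio between inducible and constitutive subunits was formed, since the probes differ.

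**Figure D2:**
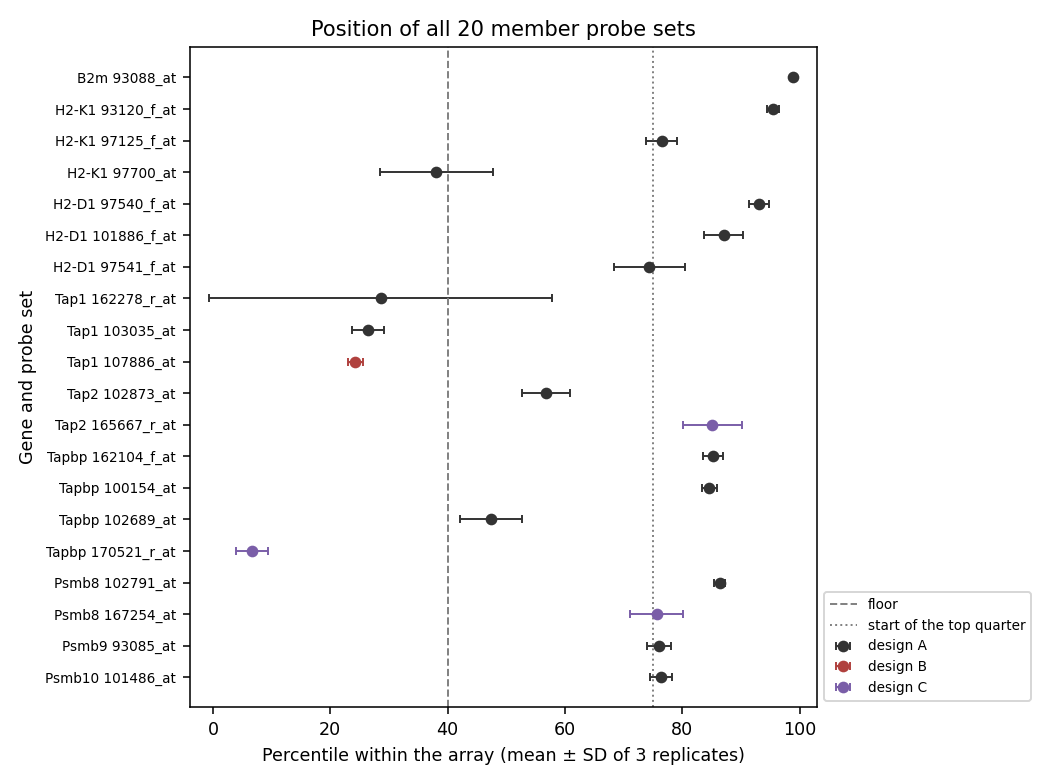
Percentile within the array of all 20 member probe sets, as mean and SD of 3 replicates, coloured by array design, with dashed and dotted lines at the 40th and 75th percentiles. Probe sets of 1 gene can lie far apart, as for Tapbp, from 6.67 on design C to 85.3 on design A, and for H2-K1, from 38.1 to 95.4.

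In the order of design A signals, B2m stood apart, since its lowest reading of 1245 exceeded the highest of 628 for the next probe set. The strongest probe sets of H2-K1 and H2-D1 overlapped in their ranges, with that of H2-K1 higher on 3 of 3 arrays. A run of overlapping probe sets followed, made of 101886_f_at of H2-D1, the Psmb8 probe set and the stronger pair of Tapbp, and after a gap a second run of 97125_f_at of H2-K1, Psmb10, Psmb9 and 97541_f_at of H2-D1. Tap2 lay below these without overlap. Neighbours within a run had overlapping ranges, though array by array Psmb8 read higher than 162104_f_at of Tapbp on 3 of 3 arrays. The probe sets closest in signal to B2m over the 3 design A arrays belonged to Hspa5, Ywhag and Cbfb, with mean absolute log2 differences of 0.065, 0.095 and 0.097. The closest to 97540_f_at of H2-D1 was a probe set of the heavy chain gene H2-K2, with a difference of 0.047, and the closest to 93120_f_at of H2-K1 was one of Vcam1, with 0.089. With 3 arrays of 1 condition this likeness is mainly one of level.

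The member probe sets of the heavy chain genes and B2m had their highest reading in the same replicate. The 3 probe sets shared between H2-K1 or H2-D1 and further genes did not read highest in it. All 6 probe sets of H2-K1 and H2-D1 and the B2m probe set read highest in replicate 1, which held for 7 of 7, whereas 25.8% of all named probe sets of design A did so. Replicate 1 exceeded the mean of replicates 2 and 3 by 0.35 to 0.71 on the log2 scale for the heavy chain probe sets and by 0.27 for B2m. The count was also 7 of 7 after centring each array on its median and after quantile normalisation, which were added after seeing the data. The share of 25.8% is for the values as deposited, and no share is given for the rescaled values. The heavy chain probe sets share sequence, so they are not independent readings. Of the 3 probe sets annotated to H2-K1 or H2-D1 together with further genes, none read highest in replicate 1. The values in replicates 1, 2 and 3 were 130, 143 and 89.2 for 102161_f_at, 89.95, 102 and 105 for 97174_r_at, and 14.5, 19.0 and 15.9 for 95773_at. The pattern was also not limited to heavy chains and B2m, since 8 of 12 design A probe sets of interferon receptors and signalling read highest in replicate 1, 4 in replicate 2 and 0 in replicate 3. Irf1 among them read 313, 299 and 224, but 96488_at of Jak2 read 29.5, 26.4 and 29.2, below the floor and nearly equal in replicates 1 and 3. Other lists differed. Of 16 design A probe sets of other class I heavy chains and class I-like molecules, 6 read highest in replicate 1, 4 in replicate 2 and 6 in replicate 3. For other listed genes of the pathway these counts were 7, 12 and 4 of 23. Of the 6 probe sets of Tap1, Tap2 and Tapbp on design A, 5 read highest in replicate 2 and 1 in replicate 1, beside 41.3% of all named probe sets highest in replicate 2. Psmb8, Psmb9 and Psmb10 each had their highest reading in a different replicate. On design C, Psmb8 and Tap2 read highest in replicate 1, beside 37.9% of named probe sets. Tapbp read highest in replicate 2 there, or in replicate 3 after centring, and lowest in replicate 1. The labels do not say whether replicate 1 of design C shares its RNA with replicate 1 of design A. The pattern was noticed in these values and no test of it was made.

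**Figure D3:**
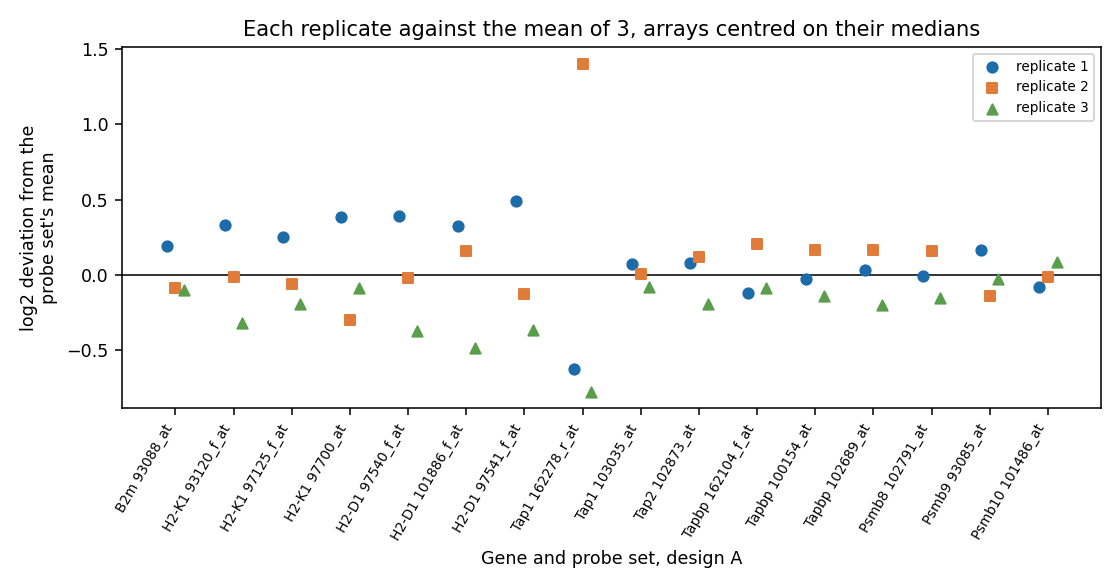
Deviation of each replicate from the probe set's mean on the log2 scale, with arrays centred on their medians, for the 16 design A probe sets ordered by gene. The 7 probe sets of B2m, H2-K1 and H2-D1 have replicate 1 on top, and 162278_r_at of Tap1 has replicate 2 far above the others.

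The member probe sets of design A varied somewhat more between replicates than the arrays as a whole, with a median log2 SD of 0.18 against 0.13 for all probe sets of design A. The heavy chain probe sets had log2 SDs from 0.21 to 0.43, above the SD of 79.0% to 96.7% of design A probe sets. B2m had 0.15, Psmb8 0.16, Psmb9 0.14 and Psmb10 0.09. On design C the SDs were 0.44 for Tap2, 0.36 for Tapbp and 0.28 for Psmb8, against a median of 0.14 for that design.

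On design A most lists of related genes had a lower median percentile than the 9 members, with a wide range. The exception was the 3 constitutive proteasome counterparts, with a median of 81.6 beside 76.0 for the members. On design A, 16 of 25 listed chaperones, peptidases, proteasome activators and regulators were measured. Their median percentile was 50.6 and 14 of 16 were above the floor, from Calr, the chaperone calreticulin, at 18.7 ± 4.16 to Hspa5, the chaperone BiP, at 98.8 ± 0.0974. Of other class I heavy chains and class I-like molecules, 13 of 20 were measured on design A, with a median of 27.6 and 6 above the floor. The highest was Cd1d1, which presents lipids, at 92.0 ± 0.726, and the lowest H2-M2 at 13.7 ± 1.55. Of 12 genes of interferon receptors and their signalling, 10 were measured, with a median of 64.4 and 8 above the floor. Irf1, an interferon-induced factor that activates class I genes, was highest at 90.7 ± 1.39 and the kinase gene Jak2 lowest at 27.9 ± 3.71. Irf1 belongs to both of these lists. Genes of the MHC class II pathway, which professional antigen-presenting cells use, had a median of 38.7 over 13 of 13 genes, with 4 above the floor. The highest was H2-DMa, with probe sets at 53.5 ± 0.921 and 81.1 ± 4.69, and the lowest H2-Eb2 at 11.9 ± 4.42. These lists are described by counts and medians, and no difference between them and the members was tested. The order was not the same on the other designs, which carry few of these genes. On design B the other pathway genes had a median of 57.2 over 6 genes, against 24.3 for Tap1. On design C the 3 members measured there had a median of 75.6, beside 52.0 for 4 other pathway genes, 78.6 for 2 other heavy chains and class I-like molecules, and 98.6 for 2 genes of interferon receptors and signalling.

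**Figure D4:**
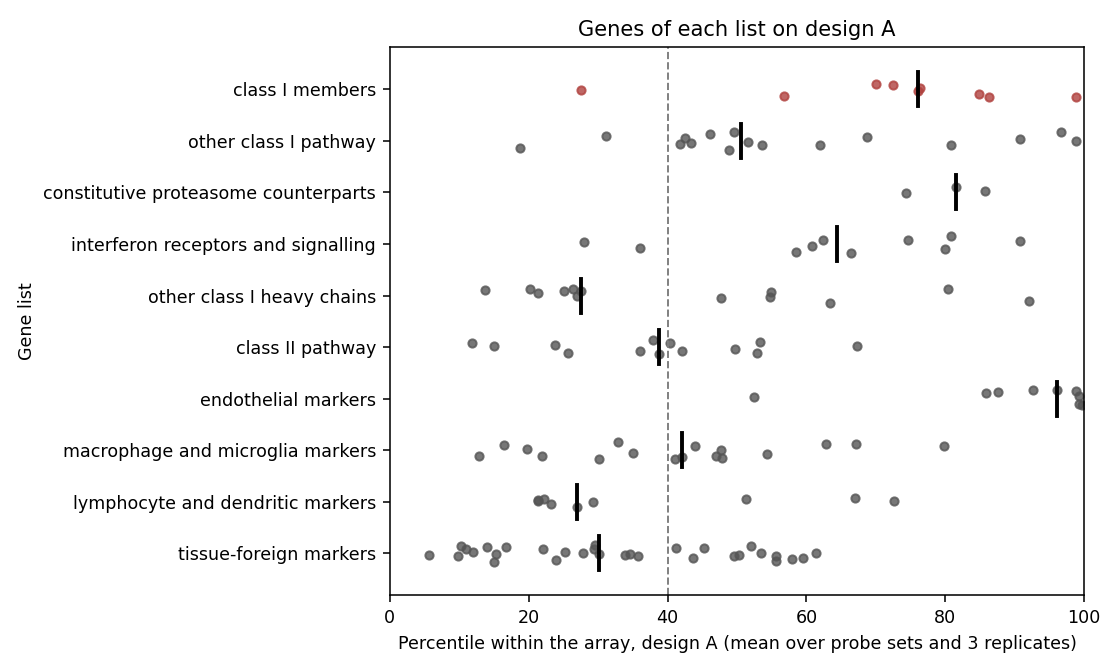
Percentile on design A of each measured gene, averaged over its probe sets and 3 replicates, by gene list, with the median of each list as a vertical bar and the floor as a dashed line. The class I members have a median of 76.0 over 9 genes, below the endothelial markers at 96.1 and the constitutive proteasome counterparts at 81.6, and above the class II genes at 38.7.

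Markers of the sorted cells and of other class I-expressing cells were read on the same arrays. Endothelial markers lay at a median percentile of 96.1 on design A, with 9 of 9 measured genes above the floor. Macrophage and microglial markers had a median of 42.1, with 10 of 17 above the floor and 4 above the tissue-foreign threshold, and lymphocyte and dendritic markers a median of 27.0, with 4 of 9 above the floor. The floor was also exceeded by 14 of 31 tissue-foreign genes and, as given above, by 66.3% of all named genes. On design C the endothelial and the macrophage and microglial medians were in the reverse order. They were 49.6 over 3 endothelial genes and 71.0 over 4 macrophage and microglial genes. The endothelial genes ranged there from Egfl7 at 30.5 ± 4.60 to Flt1 at 99.94 ± 0.00486. The macrophage and microglial genes ranged from P2ry12 at 2.12 ± 0.319 to Laptm5 at 98.8 ± 0.879. Laptm5 was read there through 167764_f_at, whose name carries the letter f. No probe set of these lists was at 0. The summed intensity over the macrophage and microglial probe sets was 1246, 1291 and 1339 in replicates 1, 2 and 3, and that over the lymphocyte and dendritic ones was 803, 747 and 821. Probe sets within a list went different ways. In the macrophage and microglial list 161832_r_at of Csf1r read 341, 126 and 242, and 161819_f_at of Laptm5 read 79.3, 184 and 168. The plain Csf1r probe set 104354_at read 33.0, 34.2 and 31.5 (38.4 ± 2.30), without that pattern. The other Laptm5 probe set of design A, 100012_at, read 83.7, 156 and 156. The sums add intensities, so bright probe sets such as these weigh most in them. Over endothelial probe sets of design A the sum was 10891, 12112 and 10344, over class II probe sets 586, 547 and 580, and over retinal neuron and glial probe sets 818, 801 and 788. Mural markers had a median of 39.6 and retinal neuron and glial markers of 39.8, beside 30.2 for the tissue-foreign genes. Whether other sorted cells contributed to the class I signals was not tested. In sorted bulk RNA, fewer cells of a type and less RNA per cell cannot be told apart.

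Across all arrays, log2 intensities of replicates correlated over probe sets with r between 0.981 and 0.987, and the median intensity of an array was 42.9 to 44.5 for designs A and B, and 32.3 to 32.9 for design C. The number of arrays limits the precision.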

How the data were processed

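Per the labels' protocols, retinas were dissociated with papain, propidium iodide was added before sorting, and the RNA was amplified, biotin-labelled and hybridised. The authors deposited linear intensity values, 1 per probe set and array, in 1 table per design. The sources used here do not name the software that summarised or scaled them, and no detection calls were used.

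Gene names come from the platform annotation, updated through Entrez identifiers. Of 36701 probe sets, 29131 had 1 symbol. Percentiles were taken per array over all probe sets of a design (pandas 2.3.3). Readings of exactly 0, none of them from a member, were replaced by the lowest reading above 0 of that array for log2 values. A gene counted as above the floor when 1 of its probe sets exceeded the 40th percentile on all 3 arrays. With 1 condition, no contrast between conditions could be made, and no test was run. Ranks and the choice of the highest replicate were checked on simulated data. The rise planted in replicate 1 there was larger than that of the heavy chain and B2m probe sets. Counts of genes above the floor on all arrays were not simulated. The members and lists were chosen with earlier results of these data known. Every member probe set is described, and of each other gene list its highest and lowest gene on design A. Cell type markers are given as lists. Upstream regions came from RefSeq for GRCm38.p6.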

Additional observations from a re-analysis of the deposited data

How the results depend on the processing

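No paired analysis was possible because the groups that share replicate numbers are array designs with different probe sets, and all arrays belong to 1 condition. Leaving out each replicate in turn, the median percentile of the member probe sets was 76.1 to 77.1 on design A, 23.6 to 24.8 on design B and 73.1 to 77.4 on design C. The number of members above the floor on design A was 8 without each replicate and with floors at the 30th and 50th percentiles. Leaving out an array or lowering the floor cannot reduce this count, so those settings are no check of it. The count was 7 with the tissue-foreign threshold and 6 with plain probe sets, among which H2-D1 has none. The share of all named genes is not given for floors at the 30th and 50th percentiles. Taking 1 probe set per gene, the brightest, gave a design A median of 85.3, and with percentiles among probe sets with 1 symbol the design B value, which is that of 1 Tap1 probe set, was 22.3. Among plain probe sets, 3 lay at or above the 75th percentile on design A, beside 7 of all. On design C this count was 0 with plain probe sets, beside 1, and 1 member exceeded the floor, beside 2, since fewer probe sets were left. No share over all genes or probe sets is given for these design C counts or for plain probe sets. The count at or above the 90th percentile was 3 for design A and 0 for design C. The median log2 SD of the 3 design C probe sets was 0.36, and 0.05 without replicate 1. With percentiles among probe sets with 1 symbol, 19 of the 20 member probe sets moved by less than 1 SD of the replicates and 1, that Tap1 probe set of design B, by more. Leaving out a replicate cannot move a mean of 3 arrays by 1 SD, so those percentiles are no check of stability, and 162278_r_at of Tap1 fell to 11.8 without replicate 2, against 28.6 with all. Probe sets near or below the floor (all of Tap1, the weakest of H2-K1, 102689_at of Tapbp on design A, and Tapbp on design C) carry no firm level.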
